A study of Homo sapiens with 12 samples.

Results

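The comparison described here is the early response to oncogenic Ras in cells depleted of the interleukin-1 receptor. It sets the 2 libraries labelled shIL1R at day 4 of Ras induction against the 2 libraries labelled shIL1R at day 0, which is 4 of the 12 libraries of the series. The cells were IMR90, a line of human lung fibroblasts, here carrying hTERT, the catalytic subunit of telomerase, and a Ras oncoprotein fused to ERT2, a hormone-binding domain that tamoxifen activates. All 4 libraries came from cells with a hairpin RNA against the receptor, whose knockdown was induced with 0.5 ug/ml doxycycline. In the day 4 cells Ras had been activated with 200 nM tamoxifen, and the labels call day 4 the onset of the secretory response, while the day 0 cells were growing. The labels give ethanol as the control treatment without tying it to a day, so days in culture and tamoxifen cannot be told apart. The same step in cells with a scramble hairpin (shScr, 2 libraries at day 4 and 2 at day 0) is used only to show where the receptor-depleted cells differed.

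Sustained Ras signalling drives normal fibroblasts into senescence, a lasting arrest of division that is enforced by the RB and p53 pathways. Senescent cells secrete interleukins, chemokines, growth factors and proteases, together called the senescence-associated secretory phenotype (SASP). Interleukin-1 alpha and beta bind the receptor encoded by IL1R1, which signals through MYD88 and IRAK kinases to NF-kB, and NF-kB in turn raises many genes of the secretory phenotype, the interleukin-1 genes among them. Depleting the receptor weakens this loop while the Ras signal itself is still switched on.

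Poly(A) RNA was counted per gene in stranded libraries. The 12 libraries held 24140324 to 30127727 recovered gene-assigned reads, and the 4 of this comparison 24140324 to 28841272. All levels below are the deposited normalized counts, in which 1 read is worth 0.861 to 1.11 in these 4 libraries. Fold changes are differences of log2(normalized count + 1), day 4 minus day 0, and stand with ± their SE from a limma fit over all 12 libraries. A gene was called where its adjusted p, corrected after Benjamini and Hochberg over the 13924 genes tested, was below 0.05. With only 2 libraries per group a second condition is used below. A call was counted as kept where it also passed in each of the 12 fits that left out 1 library. Counts given "without either" library of a pair hold when the first or the second was left out, 1 at a time. Each shIL1R sample carried 1 of 2 hairpins, but the labels do not say whether libraries 1 and 2 carry different ones or are separate cultures, so the p-values measure only the spread between these samples. The 2 day 4 libraries differed by 2-fold or more in 66 of the 11105 genes with a mean of at least 50, and the 2 day 0 libraries in 26 of 11217.

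The target of the hairpin was read first. IL1R1 had 272 and 86.4 normalized counts in the shIL1R day 4 libraries, against 731 and 378 in the shIL1R day 0 libraries. Both day 4 libraries lay below both day 0 libraries, and the second library of each day lay below the first. The log2 fold change was −1.77 ± 0.42 (limma adjusted p = 0.00674), and the call was lost without shIL1R day 0 replicate 1 (log2 fold change −1.30, adjusted p = 0.0713). Without shIL1R day 4 replicate 2 the log2 fold change was −0.95, and the call held. The shScr libraries had 1546 and 1423 at day 4 and 1509 and 1552 at day 0, so each shIL1R library held less IL1R1 than each shScr library. HRAS, one of the Ras genes, fell to 19278 and 15523 in the day 4 libraries, against 41321 and 41405 in the day 0 libraries (−1.26 ± 0.17, limma adjusted p = 0.000287). It fell as well in shScr cells (−0.70 ± 0.17, adjusted p = 0.00821). Which Ras isoform was fused to ERT2 is not given, and reads of a transgene count towards its gene. NRAS was not called (−0.28 ± 0.13, adjusted p = 0.103).

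The cells carried the RNA of fibroblasts at both days. All 12 fibroblast markers were present, and their summed level was 642600 and 598100 in the day 4 libraries, against 609200 and 608400 in the day 0 libraries. Single markers changed within this sum, with 4 called higher and 5 lower and a median log2 fold change of −0.38. Of the markers of other cell types, 1 of 7 endothelial, 1 of 7 leukocyte, 3 of 8 epithelial and 1 of 5 neural genes had no read in any of the 4 libraries. A few markers of other types were called higher. TIE1, an endothelial receptor, had 157 and 126 at day 4, against 27.8 and 14.6 at day 0, while CDH5, the endothelial cadherin, was at 0 in all 4 libraries. CD68, a lysosomal protein of macrophages and other cells, had 4737 and 4337 at day 4, against 2839 and 2878 at day 0. KRT8, a keratin of simple epithelia, had 419 and 501 at day 4, against 225 and 278 at day 0. KRT18, the other epithelial marker tested, had 2177 and 2457 at day 4, against 2328 and 3014 at day 0, and was not called. KDR, another endothelial receptor, had 42.0 and 53.2 at day 4, against 4.49 and 12.9 at day 0, and its call was lost in 2 of the 12 fits without 1 library. Of the 5 endothelial markers tested 4 had a log2 fold change above 0, with a median of 1.32, 2 were called higher and 1 lower. The summed endothelial list was 1625 and 1977 at day 4, against 2529 and 3282 at day 0, most of it TEK, the TIE2 receptor, with 1401 and 1782 at day 4, against 2483 and 3249 at day 0. The summed leukocyte list was 4750 and 4348 at day 4, against 2852 and 2894 at day 0, nearly all of it CD68, and its defining gene PTPRC was at or near 0. Of the 5 smooth muscle and pericyte markers 2 were called lower (0 kept), and of the 2 neural markers tested 1 was called higher (0 kept). The part of other cells in any result was not tested.

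A large share of the genes of receptor-depleted cells differed between day 4 and day 0. Of the 13924 genes tested, 2795 (20.1%) were higher and 2832 (20.3%) lower at day 4, together 40.4%. The counts of calls in each list below stand against these shares. The call was kept without each library for 1464 and 1398 of them, and for 1405 higher (10.1%) and 1359 lower genes (9.76%) the mean was also at least 50 in the higher group, the libraries of the 2 days did not overlap and the change stayed within a factor of 1.5. These 2 groups of genes supply most names below, so for those names non-overlap was a condition of being named and is no further evidence. Non-overlap alone was common, at 74.3% of all genes tested. Among the called genes 707 were higher by at least 2-fold, 169 by at least 4-fold and 15 by at least 16-fold, and 932, 134 and 6 were lower by as much.

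The largest rises were mostly of genes that were nearly silent at day 0. SYT7, a calcium sensor of membrane fusion, had 65.4 and 57.6 normalized counts in the day 4 libraries, against 0.898 and 0.861 in the day 0 libraries, which was 1 read in each. Its ratio of day 4 over day 0 was 70.3, with an exact 95% interval from counting alone of 19.0 to 587. ANKRD33, with 82.1 and 47.6 at day 4 against 0.898 and 1.72 at day 0, had a ratio of 50 (16.7 to 246). Genes with firmer day 0 levels rose far as well. ANGPT2, a ligand of the TIE2 receptor that acts on blood vessels, rose to 341 and 321 at day 4, against 10.8 and 11.2 at day 0 (4.79 ± 0.33, limma adjusted p = 4.23e-06). SLC6A15, a transporter of neutral amino acids, had 7555 and 6618 at day 4, against 424 and 428 at day 0 (4.05 ± 0.12). SCUBE3, a secreted protein that promotes BMP signalling, had 11390.2 and 9068 at day 4, against 724 and 572 at day 0 (3.98 ± 0.25). In each of these genes both day 4 libraries stood far above both day 0 libraries, and in ANGPT2, SLC6A15 and SCUBE3 the libraries of a day were close. LCE1F and CST1, which rose by 6.93 ± 0.50 and 4.66 ± 0.29, belong to families of near-identical genes, so reads may be shared with their neighbours.

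Matrix, growth control and complement genes were among the largest falls. CEMIP, a protein needed to break down hyaluronan, fell to 441 and 767 at day 4, against 8149.5 and 15508 at day 0 (−4.27 ± 0.38, limma adjusted p = 2.21e-05). ELN, which encodes elastin, fell to 22.5 and 16.6 at day 4, against 218 and 274 at day 0 (−3.59 ± 0.42). C3, the central complement protein, fell to 92.8 and 85.3 at day 4, against 1431 and 1963 at day 0 (−4.22 ± 0.56, adjusted p = 0.000232). For all 3 the day 4 libraries lay far below the day 0 libraries, with no overlap. BMP5, a ligand of the BMP family, had 1.95 and 1.11 at day 4, against 55.7 and 118 at day 0. That is 2 and 1 reads against 62 and 137, and the ratio of day 0 over day 4 was 56.2 (exact 95% counting interval 18.9 to 275). E2F2, an activator of S phase genes, had 3 reads in each day 4 library, against 112 and 137 at day 0, and a ratio of day 0 over day 4 of 35.1 (15.9 to 96.7). MAP2K6, a kinase upstream of p38, fell to 6.84 and 4.43 at day 4, against 56.6 and 58.5 at day 0 (−3.17 ± 0.38).

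**Figure D1:**
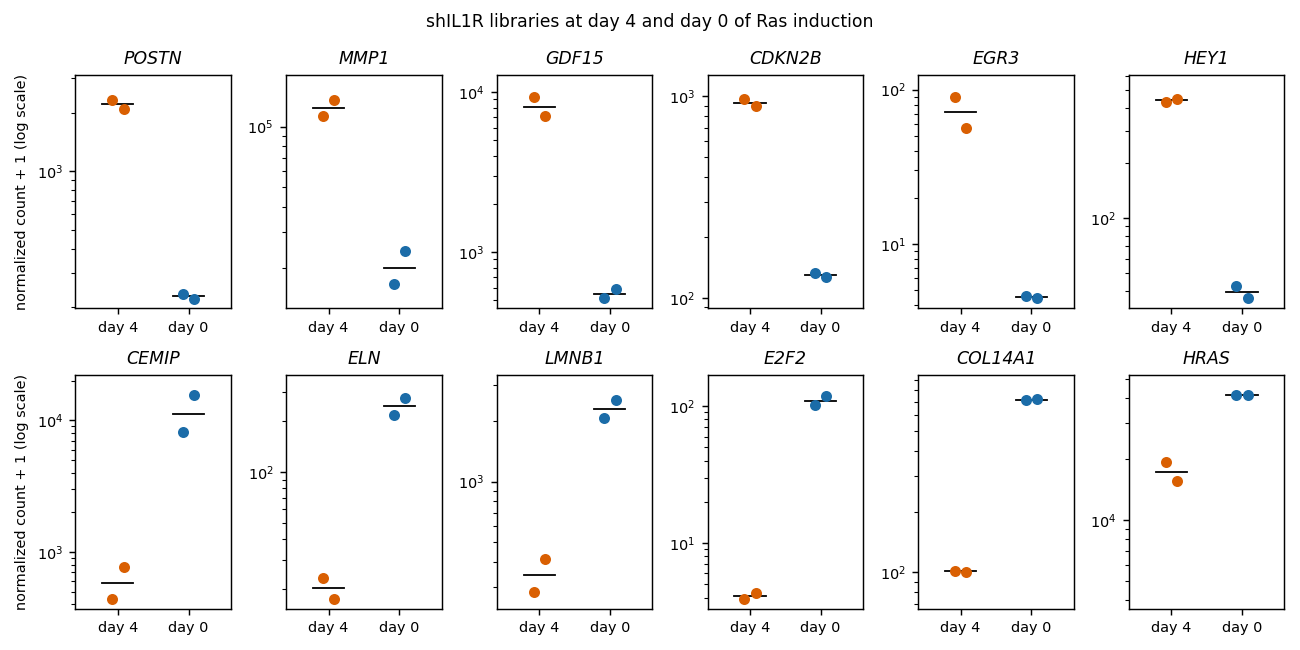
Normalized counts plus 1 (log axes, a scale per gene) in the shIL1R day 4 (orange) and day 0 (blue) libraries, with a point per library and their geometric mean as a bar. The 6 genes of the upper row stand higher at day 4 and the 6 of the lower row, HRAS among them, lower, with no overlap of the days.

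The cell division programme fell almost as a whole. All 32 DNA replication genes tested were called lower (31 kept), with a median log2 fold change of −1.49, against a median of −0.01 over all genes tested. Of 34 genes of mitosis and the spindle checkpoint 33 were called lower (25 kept) with a median of −1.50, and the exception was UBE2C (−0.79 ± 0.35, limma adjusted p = 0.0938). Of 26 DNA repair and damage checkpoint genes 23 were called lower (17 kept). None of the first 2 lists was called higher. Bulk RNA cannot tell fewer dividing cells from less of these RNAs per cell.

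The 4 mitosis genes with the largest kept falls are the ones whose promoters are printed. KIF20A, a kinesin of the central spindle, had 936 and 984 at day 4, against 4969 and 4314 at day 0 (−2.27 ± 0.50, limma adjusted p = 0.00435). KIF11, the kinesin that pushes spindle poles apart, had 779 and 938 at day 4, against 3549.9 and 3456 at day 0 (−2.03 ± 0.36). For both kinesins the days did not overlap. MKI67, which coats mitotic chromosomes and is the source of the Ki-67 antigen, had 2092 and 2831 at day 4, against 9232 and 9197 at day 0 (−1.92 ± 0.43). CEP55, needed for the final cut between daughter cells, had 891 and 854 at day 4, against 3488 and 3024 at day 0 (−1.90 ± 0.24). In each of the 4 both day 4 libraries lay far below both day 0 libraries, and the libraries of a day lay close together.

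Genes of late cell cycle are known for 2 promoter elements, the CHR (TTTGAA), through which the DREAM complex represses and the MuvB complex with B-MYB and FOXM1 activates them, and the CCAAT box bound by NF-Y. The promoters below run from 250 bases before to 50 after the start site in the RefSeq table for GRCh38.p14 and were matched by gene symbol, since the counts were made on hg19. Capitals mark TTTGAA and CCAAT on either strand (TTCAAA and ATTGG where they read on the other strand), and in MKI67 the last base of a TTTGAA is the first of an ATTGG.
KIF20A, chr5:138178862-138179161, plus strand: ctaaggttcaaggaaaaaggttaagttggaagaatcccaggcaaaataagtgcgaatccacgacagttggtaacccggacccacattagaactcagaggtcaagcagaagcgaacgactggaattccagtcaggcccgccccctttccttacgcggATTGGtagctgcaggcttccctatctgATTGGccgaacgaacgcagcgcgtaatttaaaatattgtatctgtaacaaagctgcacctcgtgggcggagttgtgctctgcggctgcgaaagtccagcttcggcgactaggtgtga
KIF11, chr10:92592880-92593179, plus strand: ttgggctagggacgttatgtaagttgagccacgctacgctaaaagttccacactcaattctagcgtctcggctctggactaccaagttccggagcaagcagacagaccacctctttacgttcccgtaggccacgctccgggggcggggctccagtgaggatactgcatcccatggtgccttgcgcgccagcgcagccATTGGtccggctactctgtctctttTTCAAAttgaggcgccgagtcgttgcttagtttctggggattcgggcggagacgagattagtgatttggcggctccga
MKI67, chr10:128126374-128126673, minus strand: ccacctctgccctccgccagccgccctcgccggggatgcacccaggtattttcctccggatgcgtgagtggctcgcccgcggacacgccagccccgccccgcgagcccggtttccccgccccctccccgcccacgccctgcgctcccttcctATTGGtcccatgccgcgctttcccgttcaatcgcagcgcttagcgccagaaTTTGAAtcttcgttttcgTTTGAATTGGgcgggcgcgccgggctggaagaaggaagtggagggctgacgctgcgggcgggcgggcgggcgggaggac
CEP55, chr10:93496362-93496661, plus strand: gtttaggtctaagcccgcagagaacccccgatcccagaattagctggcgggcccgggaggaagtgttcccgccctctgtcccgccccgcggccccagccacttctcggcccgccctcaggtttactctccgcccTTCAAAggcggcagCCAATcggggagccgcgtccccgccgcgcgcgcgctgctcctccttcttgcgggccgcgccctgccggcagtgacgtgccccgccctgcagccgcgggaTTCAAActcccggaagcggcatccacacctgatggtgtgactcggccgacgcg
Counted from the start site, the CHR letters began at base −28 in KIF11, at −47 and −29 in MKI67 and at −116 and −3 in CEP55, and KIF20A held CCAAT letters without TTTGAA. Over the mitosis list 20 of the 28 promoters in the table (71.4%) held TTTGAA on either strand, against 15.4% of all 27305 promoters of the same length and 9.77% of the 10336 promoters of genes tested. Of the 28 promoters of DNA replication genes 0 held it. CCAAT was in 75% of the mitosis promoters and 60.7% of the replication promoters, against 35.7% of all and 36.2% of those of genes tested. These are matches of letters in a window, and no binding was measured. The median log2 fold changes were −1.50 for the mitosis list and −1.49 for the replication list. Whether either element had a part in these falls was not tested.

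DNA replication genes fell at each step of the process that was looked at. MCM6, part of the helicase that unwinds DNA, fell to 455 and 487 at day 4, against 2112 and 2003 at day 0 (−2.12 ± 0.35, limma adjusted p = 0.000885). MCM10, which helps to activate that helicase, fell to 143 and 153 at day 4, against 797 and 722 at day 0 (−2.35 ± 0.49). GINS3, a subunit of the helicase complex, fell to 62.5 and 72 at day 4, against 365 and 328 at day 0 (−2.35 ± 0.20). In these 3 genes the libraries of the days stood well apart, and across the list the log2 fold changes ran from −2.35 to −0.88. Upstream of them, 16 of 22 E2F factors and G1/S cyclins fell, all 16 kept, and 3 were higher. The higher calls numbered 1 without shIL1R day 0 replicate 1 or either shIL1R day 4 replicate. CCNE2, a cyclin that drives entry into S phase, fell to 55.7 and 64.2 at day 4, against 468 and 429 at day 0 (−2.88 ± 0.33). CDC25A, a phosphatase that activates cyclin-dependent kinases, fell to 127 and 174 at day 4, against 641 and 606 at day 0 (−2.06 ± 0.24). Both are textbook E2F targets. Among the repair genes BARD1, the partner of BRCA1, fell to 175 and 161 at day 4, against 612 and 587 at day 0 (−1.83 ± 0.16).

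Inhibitors of cyclin-dependent kinases and RB relatives moved in both directions, with 4 of 10 higher (3 kept) and 3 lower (3 kept). CDKN2B, which encodes p15 and blocks CDK4 and CDK6, rose to 964 and 893 at day 4, against 133 and 127 at day 0 (2.83 ± 0.18, limma adjusted p = 2.66e-06). CDKN2A, the gene of p16 and ARF, rose to 269 and 320 at day 4, against 131 and 126 at day 0 (1.19 ± 0.12), and gene counts do not separate its products. CDKN1A, the gene of p21 and a p53 target, rose to 28391 and 18068 at day 4, against 10401 and 9905 at day 0 (1.16 ± 0.24, adjusted p = 0.00312). In all 3 both day 4 libraries were above both day 0 libraries, with the day 4 pair farthest apart in CDKN1A. CDKN2C, the gene of p18, fell to 148 and 196 at day 4, against 1111 and 1009.6 at day 0 (−2.63 ± 0.36). RBL1, an RB relative, fell to 288 and 282 at day 4, against 1100.1 and 1035 at day 0 (−1.90 ± 0.15).

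Among 30 targets of p53 12 were higher (5 kept) and 3 lower (2 kept), with a median of 0.30. The higher calls numbered 7 without shIL1R day 0 replicate 1 and 6 without shIL1R day 4 replicate 1, and the lower calls 5 without either shIL1R day 10 library. GDF15, a stress hormone of the TGF-beta superfamily, rose to 9273 and 7037 at day 4, against 512 and 584 at day 0 (3.88 ± 0.46, limma adjusted p = 0.000111). PLK3, a stress-responsive kinase, rose to 3813 and 2580.3 at day 4, against 704 and 627 at day 0 (2.24 ± 0.41). BBC3, the death-promoting protein PUMA, rose to 347 and 342 at day 4, against 132 and 115 at day 0 (1.47 ± 0.22). All 3 were clear of their day 0 levels in both day 4 libraries. In the BCL2 family, which decides between survival and death of a cell, 9 of 14 genes rose (5 kept) and 2 fell (1 kept). The falls numbered 1 without any one of the 4 shIL1R libraries of days 0 and 4. BMF, which promotes cell death, rose to 759 and 598 at day 4, against 143 and 169.6 at day 0 (2.11 ± 0.20). MCL1, which opposes it, rose to 18397 and 16817 at day 4, against 8702 and 10323 at day 0 (0.89 ± 0.10).

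Genes of the nuclear lamina, HMG proteins and chromatin fell in 24 of 35 cases (22 kept) and rose in 5 (5 kept), with a median of −0.96. LMNB1, the gene of lamin B1, whose loss is a known mark of senescence, fell to 283 and 413 at day 4, against 2064 and 2523 at day 0 (−2.73 ± 0.41, limma adjusted p = 0.000528). TMPO, an inner nuclear membrane protein, fell to 994 and 898 at day 4, against 4250.3 and 3871 at day 0 (−2.10 ± 0.17). HMGB2, a chromatin protein that binds bent DNA, fell to 1226 and 1506 at day 4, against 3963 and 3454 at day 0 (−1.44 ± 0.13). The days did not overlap in any of the 3. Replication-dependent histone genes did not go the way of the replication genes in these poly(A) libraries. Of 10 tested 3 were higher (2 kept) and 0 lower, 1 without either shIL1R day 10 library, and members of the family are near-identical. HIST1H2BD rose to 161 and 133 at day 4, against 61.1 and 69.7 at day 0 (1.15 ± 0.27).

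Genes that Ras and MAP kinase signalling raises, many of which act back on the pathway as inhibitors, were mostly higher. Of 29 feedback and early response genes 19 rose (13 kept) and 3 fell (3 kept), with a median of 0.60. EGR3, a zinc finger factor, had 88.9 and 55.4 at day 4, against 3.59 and 3.44 at day 0, where 4 reads stood in each library. The ratio was 20.8 (exact 95% counting interval 10.3 to 49.2). SPRY2, a Sprouty inhibitor of receptor and Ras signalling, rose to 8595 and 5518 at day 4, against 1879 and 1524 at day 0 (2.02 ± 0.23, limma adjusted p = 9.24e-05). DUSP5, a phosphatase that inactivates ERK in the nucleus, rose to 8221 and 8015 at day 4, against 1823 and 2192 at day 0 (2.02 ± 0.39). DUSP6, its cytoplasmic counterpart, rose to 9730.5 and 7976 at day 4, against 2525 and 2833 at day 0 (1.72 ± 0.12). All of these separated the days without overlap, as the rule for most names required. Not every relative moved this way, since SPRY1 fell (−1.36 ± 0.25, adjusted p = 0.0016), DUSP8 fell (−1.54 ± 0.30, adjusted p = 0.00213) and DUSP1 was not called (0.60 ± 0.50, adjusted p = 0.362). EGR1, another early response factor, had 7069 and 3483 at day 4, against 2301 and 2808 at day 0. Its call (0.96 ± 0.33, adjusted p = 0.0395) was lost in 7 of the 12 fits without 1 library, among them both without a shScr day 0, a shIL1R day 0 or a shScr day 10 library. The log2 fold change was 0.45 without shIL1R day 4 replicate 1, also lost, and 1.48 without shIL1R day 4 replicate 2.

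AP-1 and immediate early factors were divided, with 7 of 23 higher (3 kept) and 8 lower (5 kept). The higher calls numbered 4 without shIL1R day 0 replicate 1 and 3 without shIL1R day 4 replicate 1. CEBPB, a factor that drives many secretory genes, rose to 2742 and 2223 at day 4, against 704 and 655 at day 0 (1.86 ± 0.27, limma adjusted p = 0.000428). NR4A2, an orphan nuclear receptor, fell to 30.3 and 49.8 at day 4, against 206 and 249.6 at day 0 (−2.51 ± 0.30). KLF2, a factor of quiescent T cells and of endothelium, fell to 381 and 499 at day 4, against 1843 and 1357 at day 0 (−1.86 ± 0.22). In each the days stood apart.

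The Notch pathway, known to be active early in Ras-induced senescence, had 8 of 13 genes higher (5 kept) and 0 lower, and 5 of the 13 had a log2 fold change below 0. The higher calls numbered 5 without shIL1R day 0 replicate 1 or shIL1R day 4 replicate 1, and 1 gene was called lower without shIL1R day 0 replicate 2. JAG1, a ligand, rose to 547 and 555 at day 4, against 353 and 338 at day 0 (0.67 ± 0.14). NOTCH1, a receptor, rose to 2786 and 2678 at day 4, against 1134 and 989 at day 0 (1.37 ± 0.14). HEY1, a target and a repressor of transcription, rose to 431 and 446 at day 4, against 41.3 and 35.3 at day 0 (3.49 ± 0.28, limma adjusted p = 1.27e-05). HES1, another known target, rose to 372 and 230.3 at day 4, against 38.6 and 40.5 at day 0 (2.86 ± 0.37). HEY1 and HES1 rose in shScr cells too (2.73 ± 0.28 for HEY1 and 2.18 ± 0.37 for HES1).

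Both interleukin-1 ligands were called higher with the receptor depleted, though the day 4 libraries disagreed on how far. IL1B had 5552 and 1989 normalized counts in the day 4 libraries, against 854 and 835 in the day 0 libraries (1.98 ± 0.53, limma adjusted p = 0.0126). IL1A had 559.7 and 267 at day 4, against 76.3 and 141 at day 0 (1.89 ± 0.54, adjusted p = 0.0173). Replicate 1 of day 4 held over 2-fold more of both than replicate 2, and each day 4 library lay above each day 0 library. Both calls were lost without replicate 1 of shIL1R day 4 (log2 fold change 1.24 for IL1B and 1.35 for IL1A) and without replicate 1 of shIL1R day 0 (1.99 and 1.45), and that of IL1B also without shIL1R day 0 replicate 2 (1.96).

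Of 20 genes of the interleukin-1 family and its receptor signalling 6 were higher (2 kept) and 3 lower (1 kept). Without shIL1R day 0 replicate 1 they numbered 2 and 1, and without shIL1R day 4 replicate 1 the higher calls numbered 3. IRAK1, the kinase recruited to the active receptor, rose to 7349.9 and 7719 at day 4, against 5917 and 5323 at day 0 (0.42 ± 0.08). TOLLIP, which restrains that step, rose to 2107 and 2262 at day 4, against 1408 and 1293 at day 0 (0.69 ± 0.08). IRAK3, a kinase relative that dampens the pathway, fell to 179.7 and 148 at day 4, against 577 and 630 at day 0 (−1.88 ± 0.15, limma adjusted p = 9.82e-06). The regulators thus moved in both directions, and MYD88, the adaptor of the receptor, was not called (−0.37 ± 0.17, adjusted p = 0.105).

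Cytokines and chemokines moved in both directions in these cells. Of 27 tested 4 were higher (2 kept) and 6 lower (2 kept), near the shares of all genes tested (20.1% and 20.3%), with a median of −0.31. For the same genes in shScr cells the counts were 8 higher and 2 lower, where 19.4% and 18.9% of all genes tested were called, and the median was 0.56. The higher calls in shIL1R cells numbered 2 without shIL1R day 0 replicate 1 or shIL1R day 4 replicate 1 and 7 without either shIL1R day 10 library. The lower calls numbered 3 without either shIL1R day 0 library and 2 without shIL1R day 4 replicate 2. TNFSF15, a TNF family ligand also called TL1A, rose to 832 and 627 at day 4, against 79.9 and 88.7 at day 0 (3.09 ± 0.32, limma adjusted p = 4.66e-05). CSF1, the growth factor of macrophages, fell to 692 and 530.5 at day 4, against 1235 and 1074 at day 0 (−0.93 ± 0.15). IL6, a central SASP cytokine, had 124 and 57.6 at day 4, against 259 and 337 at day 0 (−1.79 ± 0.43, adjusted p = 0.00722). These 3 differ in direction, and the IL6 call was lost without shIL1R day 4 replicate 2 (−1.24) and without shIL1R day 0 replicate 2 (−1.60). CXCL1, a chemokine for neutrophils, had 17.6 and 11.1 at day 4, against 78.1 and 46.5 at day 0 (−2.03 ± 0.53, adjusted p = 0.0112), and its call was lost without shIL1R day 0 replicate 1 (−1.66) and without shIL1R day 4 replicate 2 (−1.72). CXCL8, of the same class, had 823 and 375 at day 4, against 991 and 1145 at day 0, and was not called (−0.94 ± 0.66, adjusted p = 0.284). In IL6, CXCL1 and CXCL8 both shIL1R day 4 libraries lay below both day 0 libraries.

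The same genes in shScr cells stood otherwise, at day 0 as well as at day 4. IL6 had 375 and 166 in the shScr day 4 libraries, against 125 and 110.2 in the shScr day 0 libraries (1.08 ± 0.43, limma adjusted p = 0.0698). CXCL8 had 2426 and 1099 at day 4, against 475 and 666 at day 0 (1.54 ± 0.66, adjusted p = 0.0895), and CXCL1 67.5 and 50.2 at day 4, against 38.6 and 43.4 at day 0 (0.50 ± 0.53, adjusted p = 0.492). None of the 3 passed in shScr cells, although day 4 lay above day 0 in each. TNFSF15 rose there to 3185 and 2429 at day 4, against 40.4 and 37.6 at day 0 (6.12 ± 0.32). BMP2, a BMP ligand, rose to 6310.5 and 4331 at day 4, against 1574 and 1977 at day 0 in shIL1R cells (1.57 ± 0.18, adjusted p = 0.000103) and to 8445 and 6196 at day 4, against 856 and 763 at day 0 in shScr cells (3.16 ± 0.18). The differences between the genotypes in the day 4 change were −3.04 ± 0.45 for TNFSF15 (limma adjusted p = 0.0601) and −1.59 ± 0.26 for BMP2 (adjusted p = 0.0854), and neither passed. For IL1A, IL1B, IL6, CXCL8 and CXCL1 the differences were −2.06 ± 0.76, −2.42 ± 0.75, −2.87 ± 0.61, −2.47 ± 0.94 and −2.53 ± 0.75, and none passed (adjusted p = 0.369, 0.321, 0.233, 0.377 and 0.314). At day 0 both shIL1R libraries stood above both shScr libraries for IL6, CXCL8, CXCL1, TNFSF15 and BMP2. The differences for these genes thus hold a gap at day 0 as well as any at day 4. Over the cytokine list 21 of 27 differences were negative and 6 positive, with 0 called.

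**Figure D2:**
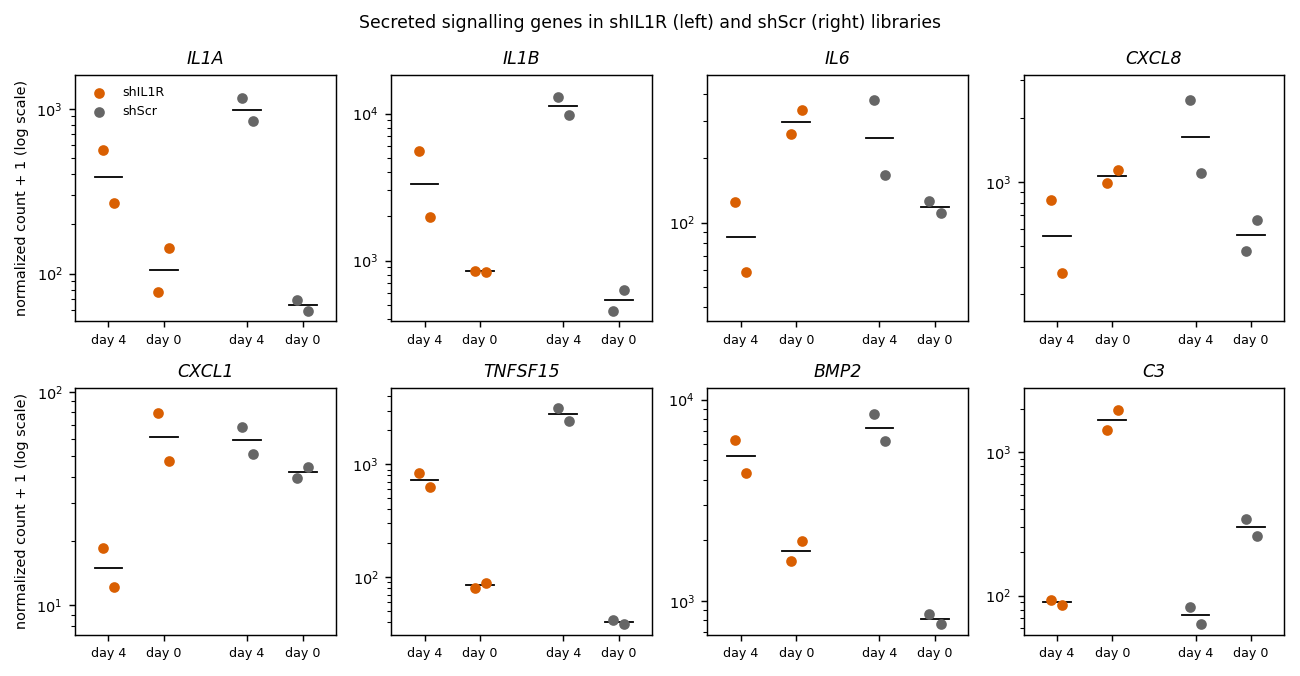
Normalized counts plus 1 (log axes, a scale per gene) of 8 secreted signalling genes in the shIL1R (orange) and shScr (grey) libraries, day 4 left of day 0, with a point per library and their geometric mean as a bar. IL6, CXCL8 and CXCL1 stand lower at day 4 than at day 0 in shIL1R cells and higher in shScr cells, and TNFSF15 and BMP2 stand higher at day 4 in both.

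NF-kB subunits, feedback genes and targets moved in both directions. Of 29 tested 3 were higher (2 kept) and 6 lower (3 kept), with a median of 0.03, and in shScr cells 12 were higher and 3 lower. The lower calls numbered 3 without shIL1R day 0 replicate 1 or shIL1R day 4 replicate 2, and the higher calls 5 without either shIL1R day 10 library. NFKB1, a subunit, and NFKBIA, the inhibitor that NF-kB induces, were not called (−0.24 ± 0.13 and 0.40 ± 0.39, limma adjusted p = 0.156 and 0.452). RIPK2, a kinase that signals to NF-kB, rose to 2549 and 2466 at day 4, against 1225 and 1158 at day 0 (1.07 ± 0.21, adjusted p = 0.00204). SOD2, the mitochondrial superoxide dismutase and a classical NF-kB target, fell to 2584 and 2131 at day 4, against 3709 and 3839.6 at day 0 (−0.69 ± 0.13, adjusted p = 0.00158). TRAF1, an adaptor induced by NF-kB, fell to 34.2 and 37.7 at day 4, against 102 and 87.8 at day 0 (−1.38 ± 0.20). These 2 targets fell, with no overlap of the days, but they do not stand for the list. Over its 29 genes 15 log2 fold changes were above 0 and 14 below, from −1.40 to 2.42. Of the 29 differences between the genotypes 25 were negative and 4 positive, with 0 called (lowest limma adjusted p = 0.29). In shScr cells SOD2 was not called (−0.08 ± 0.13, adjusted p = 0.657) and TRAF1 fell (−0.74 ± 0.20, adjusted p = 0.0124).

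Of 15 complement and acute phase genes 5 fell (4 kept) and 2 were higher (0 kept). The higher calls numbered 0 without replicate 1 of shIL1R day 0 or day 4 and 1 without shIL1R day 0 replicate 2 or either shScr day 4 library. Beside C3, described above, the proteases of the classical pathway fell. C1S fell to 1063 and 782 at day 4, against 2484 and 2536 at day 0 (−1.46 ± 0.15, limma adjusted p = 5.78e-05). C1R, which activates it, fell to 1472 and 1413 at day 4, against 2895 and 3073 at day 0 (−1.05 ± 0.20). C3 itself had 82.8 and 62.5 in the shScr day 4 libraries, against 343 and 259.5 in the shScr day 0 libraries (−2.04 ± 0.56), so its day 4 levels lay close together in the genotypes and both shIL1R day 0 libraries stood above both shScr ones. The difference of the day 4 changes did not pass (−2.18 ± 0.79, adjusted p = 0.362).

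Of 38 interferon-stimulated genes 7 fell (3 kept) and 3 rose (1 kept), where 20.3% of all genes tested fell and 20.1% rose. The list thus held no larger share of falls than all genes. The falls numbered 12 with the day 0 and day 4 libraries of both genotypes alone, where 3486 of all genes fell, 3 without shIL1R day 0 replicate 2 and 4 without shIL1R day 4 replicate 2. The rises numbered 1 without shIL1R day 0 replicate 1. OAS3, which makes the second messenger of RNase L, fell to 163 and 165 at day 4, against 702 and 741 at day 0 (−2.13 ± 0.44, limma adjusted p = 0.00316). IFIT1, which binds foreign RNA, fell to 10.7 and 27.7 at day 4, against 107 and 112 at day 0 (−2.59 ± 0.53). In both the day 4 libraries were far below day 0.

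More proteases and protease inhibitors rose than fell with the receptor depleted. Of 31 metalloproteinases, plasminogen system genes and inhibitors 17 were higher (12 kept) and 1 was lower (1 kept), with a median of 0.88. MMP1, the interstitial collagenase, rose to 112691 and 135690 at day 4, against 16551 and 24115 at day 0 (2.63 ± 0.18, limma adjusted p = 3.74e-06). MMP14, a membrane-bound collagenase, rose to 89316 and 78708 at day 4, against 25122 and 24611 at day 0 (1.75 ± 0.18). ADAM19, a membrane protease, rose to 9599 and 8017 at day 4, against 2764 and 3238 at day 0 (1.55 ± 0.14). TIMP1, an inhibitor of metalloproteinases, rose beside them by 1.53 ± 0.10. The plasminogen activators PLAU and PLAT rose by 1.10 ± 0.20 and 1.33 ± 0.19. ADAMTS5, which cuts aggrecan, fell to 192 and 308 at day 4, against 856 and 1244 at day 0 (−2.08 ± 0.25), and a second gene was called lower without shIL1R day 4 replicate 2 or either shIL1R day 10 library. MMP3, stromelysin 1, had 929 and 953 at day 4, against 957 and 1913 at day 0, and was not called (−0.52 ± 0.37, adjusted p = 0.284). Its day 4 libraries agree closely and its day 0 libraries do not. In shScr cells MMP3 rose (1.49 ± 0.37, adjusted p = 0.00873), and the difference between the genotypes did not pass (−2.01 ± 0.52, adjusted p = 0.287).

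Growth factors changed in both directions. Of 23 angiogenic and other growth factors 11 rose (10 kept) and 6 fell (2 kept), and the falls numbered 3 without either shIL1R day 0 library. ANGPTL4, a secreted inhibitor of lipoprotein lipase, rose to 814 and 731 at day 4, against 113 and 132 at day 0 (2.65 ± 0.14, limma adjusted p = 1.84e-06). STC1, a glycoprotein hormone, rose to 121623 and 99547 at day 4, against 32417 and 37493 at day 0 (1.66 ± 0.19). KITLG, the ligand of KIT, rose to 3543 and 3663 at day 4, against 1376 and 1271 at day 0 (1.45 ± 0.18). The days were apart in all 3. Of 24 TGF-beta, BMP and activin ligands and antagonists 7 rose (7 kept) and 6 fell (4 kept). FST, the activin trap follistatin, fell to 1708 and 2544 at day 4, against 9786 and 11891 at day 0 (−2.37 ± 0.16, adjusted p = 3.61e-06).

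In the IGF axis 4 of 15 genes were higher (3 kept) and 3 lower (2 kept), near the shares of all genes tested (20.1% and 20.3%). IGFBP3, the main carrier of IGF in blood, fell to 2581 and 3031 at day 4, against 9701 and 12289 at day 0 (−1.96 ± 0.21, limma adjusted p = 6.25e-05). PAPPA, a protease that cleaves IGF carriers, rose to 1693 and 1179 at day 4, against 531 and 581 at day 0 (1.35 ± 0.14). Of 9 EGF family ligands and receptors 3 were higher (2 kept) and 1 lower (0 kept). The lower calls numbered 3 without either shIL1R day 10 library, 2 without shIL1R day 4 replicate 1 and 0 without shIL1R day 4 replicate 2 or either shIL1R day 0 library. AREG, which binds the EGF receptor, rose to 126 and 87.5 at day 4, against 24.2 and 31.8 at day 0 (1.88 ± 0.34). NRG1, which binds its relatives ERBB3 and ERBB4, rose to 903 and 775 at day 4, against 374 and 372 at day 0 (1.16 ± 0.13). Both were called higher in shScr cells as well (2.91 ± 0.34 for AREG and 2.17 ± 0.13 for NRG1).

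Matrix genes changed in both directions. POSTN, the matricellular protein periostin, rose to 2321 and 2091 at day 4, against 233 and 221 at day 0 (3.27 ± 0.09, limma adjusted p = 6.72e-09), with the libraries of each day close together. Of 23 collagen chains 9 rose (8 kept) and 6 fell (1 kept). The falls numbered 1 without shIL1R day 0 replicate 2 or shIL1R day 4 replicate 1, 2 without shIL1R day 4 replicate 2 and 3 without shIL1R day 0 replicate 1. COL10A1, a collagen of growth plate cartilage, rose to 247 and 200.4 at day 4, against 11.7 and 18.1 at day 0 (3.85 ± 0.23, adjusted p = 2.12e-06). COL18A1, the source of endostatin, rose to 14814 and 14842 at day 4, against 6698 and 5527 at day 0 (1.29 ± 0.20). COL14A1, which binds along collagen fibrils, fell to 101 and 99.7 at day 4, against 717 and 718 at day 0 (−2.83 ± 0.30, adjusted p = 5.78e-05). Its fall was the collagen fall kept without each library. COL1A1 and COL1A2, the chains of type I collagen, were called lower (−0.95 ± 0.31 and −0.90 ± 0.28), and each call was lost in 4 of the 12 fits without 1 library. LUM, a small proteoglycan of the fibril surface, fell to 388 and 512 at day 4, against 1830.2 and 2339 at day 0 (−2.21 ± 0.23). DCN, another, fell to 3298 and 3724 at day 4, against 9957 and 9994 at day 0 (−1.51 ± 0.20). FN1, fibronectin, rose to 244260 and 220736 at day 4, against 121837 and 113034 at day 0 (0.98 ± 0.17). The proteoglycans and fibronectin, all fibroblast markers, thus moved in opposite directions.

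Of 22 contractile and cytoskeletal genes 12 fell (5 kept) and 0 rose, with a median of −0.29. The falls numbered 5 without shIL1R day 0 replicate 2 and 6 without any one of the other 3 libraries of the comparison. TAGLN, an actin-binding protein of smooth muscle, fell to 10110.5 and 10044 at day 4, against 18796 and 18472 at day 0 (−0.89 ± 0.15, limma adjusted p = 0.00101). MYOCD, the coactivator that drives this programme, fell to 102 and 79.7 at day 4, against 232 and 229.8 at day 0 (−1.35 ± 0.24). MYLK, the kinase that starts contraction, fell to 14483 and 15854 at day 4, against 22777 and 24473 at day 0 (−0.64 ± 0.09). The libraries of a day were close in all 3. Of 26 integrins, cadherins and adhesion receptors 9 rose (9 kept) and 6 fell (3 kept). ITGA2, a collagen receptor, rose to 33805 and 25391 at day 4, against 10319 and 9469 at day 0 (1.57 ± 0.17). L1CAM, an adhesion protein of neurons and migrating cells, rose to 920.2 and 695 at day 4, against 158 and 175 at day 0 (2.26 ± 0.16). Regulators of fibroblast identity also went both ways. TCF21, a factor of lung mesenchyme, fell to 297 and 461 at day 4, against 1550 and 2007 at day 0 (−2.25 ± 0.21). PRRX1, a mesenchymal homeobox factor, rose to 4565 and 4732 at day 4, against 1698 and 1697 at day 0 (1.45 ± 0.09).

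Of 33 glycolysis and hypoxia-response genes 23 rose (19 kept) and 0 fell, with a median of 0.41, and 1 was called lower without shIL1R day 10 replicate 1. With quantile normalization 3 were called lower. SLC2A3, the glucose transporter GLUT3, rose to 10027 and 8215 at day 4, against 1979 and 2608 at day 0 (2.00 ± 0.29, limma adjusted p = 0.000447). ALDOC, a glycolytic aldolase, rose to 1935 and 1551 at day 4, against 525 and 609 at day 0 (1.61 ± 0.12). CA9, a carbonic anhydrase induced by hypoxia, rose to 113 and 68.7 at day 4, against 27.8 and 31 at day 0 (1.55 ± 0.26). Lysosome and autophagy genes rose in 19 of 30 cases (12 kept) and 0 fell, and the rises numbered 12 without shIL1R day 0 replicate 1. TFEB, the factor that drives lysosomal genes, rose to 204 and 162 at day 4, against 78.1 and 81.8 at day 0 (1.17 ± 0.16, adjusted p = 0.000255). NPC1, which exports cholesterol from lysosomes, rose to 4958 and 6600.2 at day 4, against 2421 and 2967 at day 0 (1.09 ± 0.18). SQSTM1, the autophagy receptor p62, rose to 13225 and 12937 at day 4, against 6201 and 6805 at day 0 (1.01 ± 0.16). TFEB, NPC1 and SQSTM1 lay above day 0 in both day 4 libraries, while 11 of the 30 genes were not called. Whether TFEB had a part in the other rises was not tested.

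Most higher calls among stress genes of the endoplasmic reticulum (ER) and of amino acid shortage were not kept without each library. The log2 fold changes were above 0 in 25 of 29 and 25 of 31 genes of these lists. Of 29 ER chaperone and secretory genes 10 were called higher (1 kept) and 1 lower (0 kept). The higher calls numbered 1 without shIL1R day 0 replicate 1 or shIL1R day 4 replicate 2, 2 without shIL1R day 0 replicate 2 and 16 without either shIL1R day 10 library. The lower calls numbered 0 without shIL1R day 0 replicate 2 or shIL1R day 4 replicate 1 and 2 without either shIL1R day 10 library. EDEM1, which takes misfolded proteins to disposal, rose to 6710 and 6814 at day 4, against 3143 and 3451 at day 0 (1.04 ± 0.13, limma adjusted p = 0.000141). Of 31 ATF4 response genes 12 were higher (2 kept) and 1 lower (1 kept), and the higher calls numbered 2 without shIL1R day 0 replicate 1 or shIL1R day 4 replicate 2 and 7 without shIL1R day 0 replicate 2. DDIT3, the stress factor CHOP, rose to 3428 and 8297 at day 4, against 549 and 626 at day 0 (3.18 ± 0.68, adjusted p = 0.00376). Both day 4 libraries were several times above day 0, with replicate 2 over 2-fold above replicate 1. CHAC1, a target of ATF4 and CHOP, rose to 8244 and 9383 at day 4, against 3924 and 3970.4 at day 0 (1.16 ± 0.20). Of 11 cytosolic heat shock genes 7 fell (4 kept) and 0 rose, and the falls numbered 4 without shIL1R day 0 replicate 1. HSP90AA1, a major chaperone, fell to 35119 and 29919 at day 4, against 55521 and 52576 at day 0 (−0.74 ± 0.10).

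Cytosolic ribosomal protein genes rose by a small and even step. All 48 tested were called higher (32 kept), with log2 fold changes from 0.25 to 0.65 and a median of 0.44. RPS14, a protein of the small subunit, rose to 16298 and 15019.9 at day 4, against 10522 and 9675 at day 0 (0.63 ± 0.11, limma adjusted p = 0.0011). RPL13, of the large subunit, rose to 22039.9 and 23562 at day 4, against 16049 and 14510.5 at day 0 (0.58 ± 0.09). In both the days did not overlap. In shScr cells 1 of the 48 was called higher and the median was 0.05. All 48 differences between the genotypes were positive with 0 called (lowest limma adjusted p = 0.233). With quantile normalization 30 of the 48 were called higher in shIL1R cells and the median was 0.29. These genes have many processed pseudogenes, so part of their reads may be shared. The ribosomal precursor RNA45S5 took 1.77 and 1.81% of reads in the shIL1R day 4 libraries and 1.42 and 1.47% in the shIL1R day 0 libraries. In shScr cells it took 1.79 and 3.41% at day 4 and 1.34 and 1.42% at day 0, and its part in the ribosomal protein values was not tested.

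Host genes of small nucleolar RNAs, whose spliced RNAs are known to be controlled much like those of ribosomal proteins, rose in 8 of 16 cases (6 kept) and fell in 3 (1 kept). The falls numbered 1 without replicate 1 of shIL1R day 0 or day 4. GAS5 rose to 2458 and 2755 at day 4, against 1374 and 1434 at day 0 (0.89 ± 0.12, limma adjusted p = 0.000256). In shScr cells GAS5 had 1648 and 1529 at day 4 and 1465 and 1403 at day 0 and was not called (0.15 ± 0.12, adjusted p = 0.362). SNHG5 rose to 2515 and 2297 at day 4, against 1491 and 1475 at day 0 (0.70 ± 0.11). All 16 differences between the genotypes were positive, and none was called (lowest adjusted p = 0.26). Among factors that build ribosomes 9 of 24 were lower (8 kept) and 0 higher, and 1 was higher without either shIL1R day 10 library. NOP56, a core protein of the methylating snoRNPs, fell to 1423 and 1466 at day 4, against 2710.2 and 2456 at day 0 (−0.84 ± 0.09). URB2, a factor of large subunit assembly, fell to 211 and 235 at day 4, against 487 and 448 at day 0 (−1.06 ± 0.12).

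Single members of other lists are given as examples, with the kept counts of each list. Over all 13924 genes tested 1464 were kept higher and 1398 kept lower. The lists held 11 (retinoic acid), 22 (WNT), 19 (lipid mediators), 24 (YAP and TAZ), 20 (ion channels) and 35 (proteasome) genes tested. In retinoic acid metabolism (2 kept higher, 0 lower) CYP26B1, which breaks the acid down, rose to 95.7 and 52 at day 4, against 17.1 and 16.4 at day 0 (2.02 ± 0.40, limma adjusted p = 0.0025), and in shScr cells to 270.1 and 282 at day 4, against 7.35 and 2.5 at day 0 (5.68 ± 0.40). The difference, −3.66 ± 0.57, did not pass (adjusted p = 0.067). Among WNT genes (4 kept higher, 3 lower) the receptor FZD8 rose to 4685 and 3124 at day 4, against 955 and 868 at day 0 (2.07 ± 0.25). The ligand WNT7B rose to 163 and 147 at day 4, against 39.5 and 38.7 at day 0 (1.96 ± 0.16). ROR1, a receptor of WNT5A, fell to 55.7 and 52 at day 4, against 258 and 296 at day 0 (−2.34 ± 0.30). So the WNT genes named here moved in both directions. Among lipid mediator genes (4 kept higher, 2 lower) SPHK1, the kinase that makes sphingosine 1-phosphate, rose to 2711 and 2114 at day 4, against 854 and 733 at day 0 (1.60 ± 0.22). Of the genes that respond to YAP and TAZ (1 kept higher, 4 lower) AXL, a receptor kinase, fell to 14687 and 17331 at day 4, against 31747 and 33043 at day 0 (−1.02 ± 0.12). Among ion channels (3 kept higher, 1 lower) TRPA1, a sensor of irritants, rose to 8785 and 11071 at day 4, against 4365 and 4728 at day 0 (1.12 ± 0.13). In the proteasome (1 kept higher, 8 lower) PSMD1, a base subunit of its regulatory particle, fell to 4406 and 4247 at day 4, against 6315 and 6081 at day 0 (−0.52 ± 0.08).

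**Figure D3:**
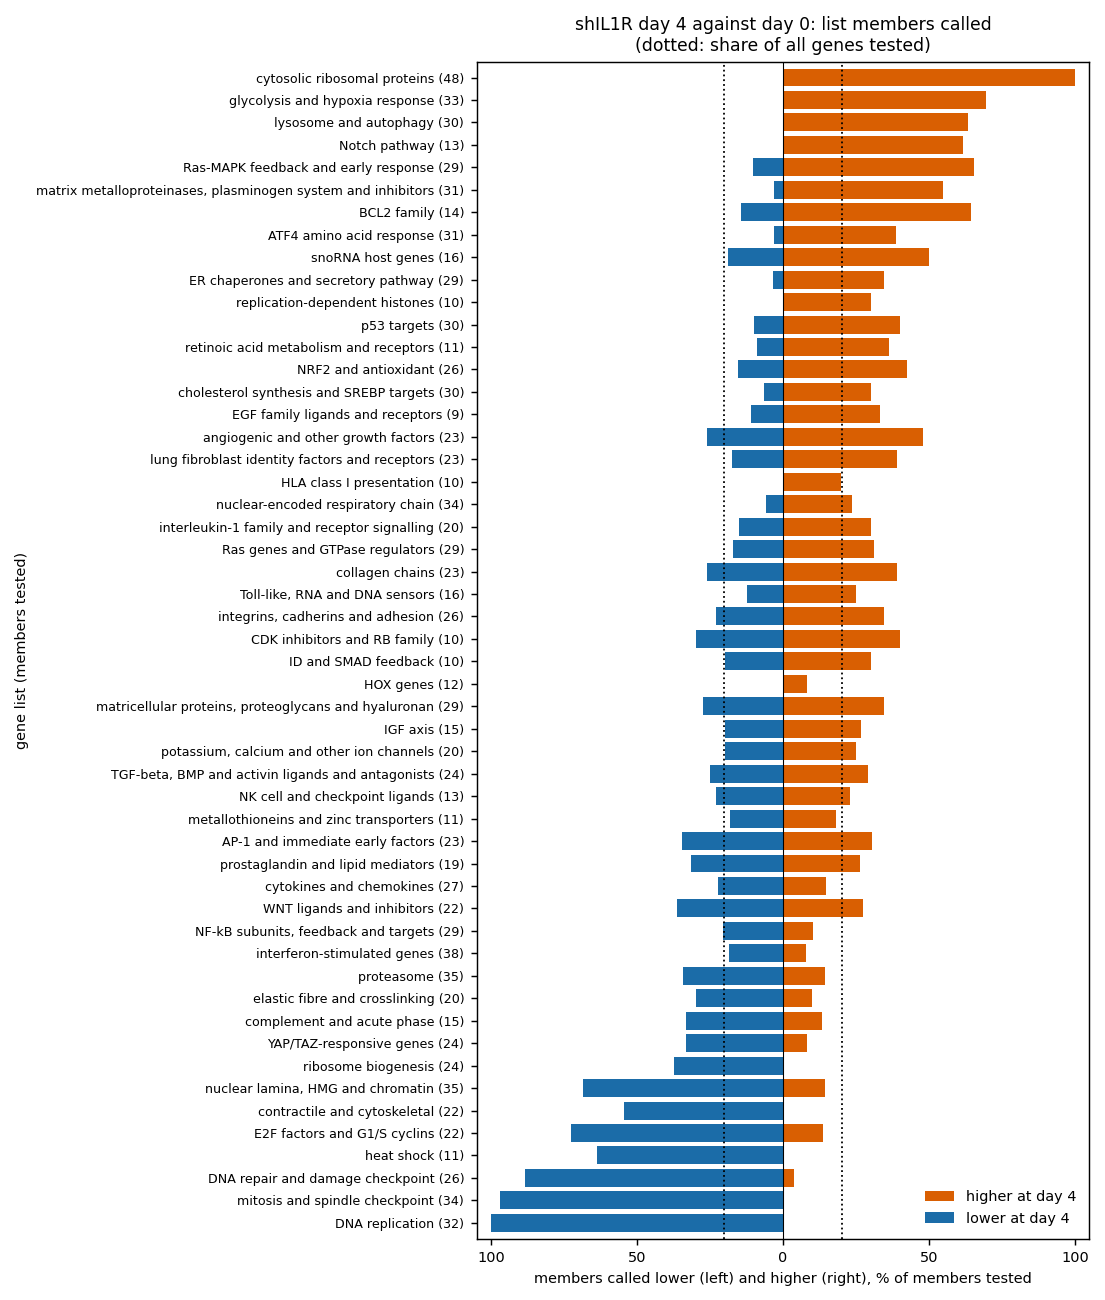
Share of the tested members of 52 gene lists called higher (orange, right) or lower (blue, left) at day 4 in shIL1R cells, with the number tested in parentheses and dotted lines at the shares of all genes tested (20.1% and 20.3%). Ribosomal proteins, with all 48 higher, stand at the top and DNA replication genes, with all 32 lower, at the bottom.

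**Figure D4:**
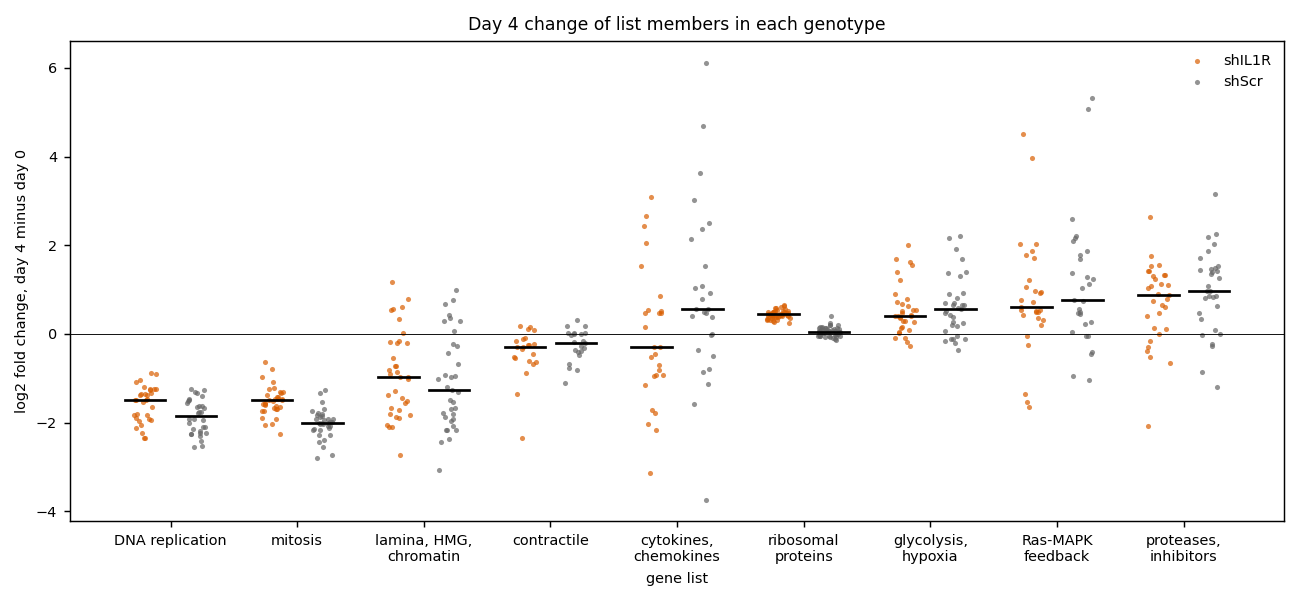
Log2 fold changes, day 4 minus day 0, of the tested members of 9 lists in shIL1R (orange) and shScr cells (grey), with a point per gene and a bar at the median. Replication and mitosis genes lie below 0 in both genotypes, the cytokine medians are −0.31 in shIL1R and 0.56 in shScr cells, and the ribosomal protein medians are 0.44 in shIL1R and 0.05 in shScr cells.

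The response was then set against the same step in shScr cells, which shares no library with it. In shScr cells 2698 genes were higher (19.4%) and 2628 lower (18.9%), and 1924 of the higher genes were higher in both genotypes, 68.8% of the shIL1R calls and 71.3% of the shScr calls. Of the lower genes 1940 were lower in both, 68.5% and 73.8%. Across the 13924 genes the log2 fold changes had a Pearson r of 0.83 and a Spearman rho of 0.79, as a description, since genes are not independent and all libraries were normalized together. Opposite calls were found for ARRDC4, COLEC10, LOC100506178 and TFRC, lower in shIL1R and higher in shScr cells.

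The difference between the genotypes passed for few genes. In the test of the difference itself 0 genes (0%) had a more positive day 4 change in shIL1R cells and 4 (0.0287%) a more negative one by limma, with 704 and 821 at an unadjusted p below 0.05. By edgeR on recovered reads the counts were 0 and 4, and by DESeq2 42 and 62. DPP4, a cell surface peptidase, had 1019.8 and 1220.4 at day 4 and 876 and 1158 at day 0 in shIL1R cells and was not called there (0.15 ± 0.13, limma adjusted p = 0.401). In shScr cells DPP4 rose to 1489 and 1507 at day 4, against 456 and 473 at day 0 (1.69 ± 0.13). SLC16A6, a monocarboxylate transporter, rose to 4473 and 4065 at day 4, against 399.6 and 476 at day 0 in shIL1R cells (3.29 ± 0.10). The shScr rise was larger, to 5492 and 5758 at day 4, against 236 and 252 at day 0 (4.52 ± 0.10). TFPI2, an inhibitor of serine proteases, rose to 18512 and 15909 at day 4, against 5265 and 5884 at day 0 in shIL1R cells (1.62 ± 0.10). It too rose farther in shScr cells, to 31027 and 31380.2 at day 4, against 4434 and 4873 at day 0 (2.75 ± 0.10). TFRC, the transferrin receptor, fell to 1719 and 1378 at day 4, against 2294 and 2501 at day 0 in shIL1R cells (−0.64 ± 0.10), and rose in shScr cells to 3178 and 3103 at day 4, against 2392 and 2359 at day 0 (0.40 ± 0.10). Without 1 library these negative calls numbered between 0 and 22, and none of the 4 was kept without each library. For DPP4, SLC16A6 and TFPI2 both shIL1R day 0 libraries stood above both shScr day 0 libraries, so their differences hold a gap at day 0 too.

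**Figure D5:**
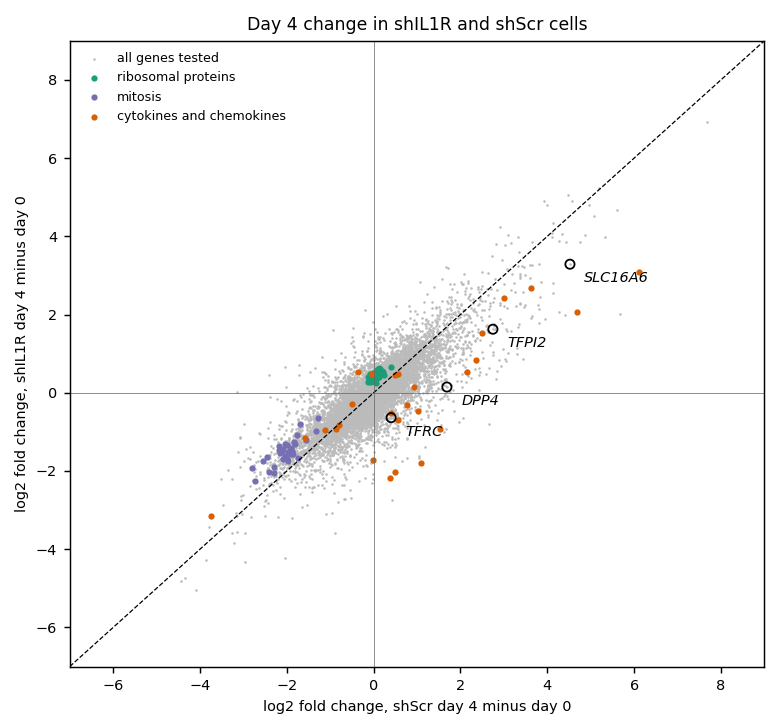
Log2 fold change, day 4 minus day 0, of each gene tested in shIL1R cells (vertical) against shScr cells (horizontal), with equal changes on the dashed line. Mitosis genes (purple) are lower at day 4 in both, ribosomal proteins (green) lie above the line, several cytokines and chemokines (orange) below it, and the 4 genes whose difference passed are circled.

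The lists with the most even changes gave no called difference. The mitosis list had a median log2 fold change of −1.50 in shIL1R and −2.01 in shScr cells, and the replication list −1.49 and −1.85. All 34 mitosis differences and 29 of 32 replication differences were positive, meaning smaller falls in shIL1R cells, and 0 were called (lowest limma adjusted p = 0.265 and 0.287). MKI67 differed by 0.88 ± 0.61 (limma adjusted p = 0.638) and HMGB2 by 0.73 ± 0.19 (adjusted p = 0.287). Missing the threshold does not show that the genotypes responded alike, since the test rests on 2 libraries per group.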

How the data were processed

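The deposited table holds normalized counts, which are reads divided by a factor for each library (a signal, not whole counts). The submitters' processing notes name TopHat, HTSeq and DESeq2 and the build hg19. Their versions, the gene annotation and whether counting used strand are not given in the sources used here. Dividing by the smallest value above 0 of a library gave whole reads for 100% of values (within 0.001 reads). The table held 27106 genes, 6344 of them at 0 throughout, and genes with at least 10 in at least 2 of the 12 libraries were tested.

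Values were taken as log2(value + 1) and fitted in R 4.3.3 with limma 3.58.1, 1 mean per group for 6 groups. Spread was moderated by eBayes along an intensity trend, on 6 residual and 4.98 prior degrees of freedom, and tests were two-sided. Counting intervals of ratios are exact and leave out the spread between libraries. Alternatives were other pseudocounts, filters and scalings, a replicate block, fewer groups, each library left out, and count tests of the recovered reads by edgeR 4.0.16 or by DESeq2 1.42.0. Data were simulated with 2 libraries per group and 13924 genes, of which 100 were changed 2-fold and 100 changed 4-fold at day 4 in shIL1R cells. The fit recovered 72% of the 2-fold and 92% of the 4-fold changes, with 8 false calls. Far more genes (40.4%) were called in the real data, so these rates need not hold there. The difference between the genotypes was not simulated.

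The comparison, lists and tests were chosen with earlier results of these data known, and the lists were written from general knowledge. The rule for named genes takes IL1R1, the 12 largest changes in each direction and up to 4 members per list among genes that passed the kept, level, overlap and factor conditions (up to 2 tested members where none did), the genes whose difference passed and a fixed set. It gives 224 genes, and the text names a part of them, picked after their values were seen. So were KDR, KRT18, NRAS, DUSP1, DUSP8, SPRY1, MYD88, NFKB1, NFKBIA, TIMP1, PLAU, PLAT, COL1A1, COL1A2, UBE2C, RNA45S5, ARRDC4, COLEC10 and LOC100506178, which stand outside the rule. Promoters were matched by symbol.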

Additional observations from a re-analysis of the deposited data

Results flagged for a closer look

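In 4 genes the test of the difference itself found the day 4 change in shIL1R cells more negative than that in shScr cells. The differences in log2 fold change, shIL1R minus shScr, were −1.54 for DPP4 and −1.23 for SLC16A6 (limma adjusted p = 0.0319 for each), −1.12 for TFPI2 (limma adjusted p = 0.042) and −1.04 for TFRC (limma adjusted p = 0.0495). Both shScr day 4 libraries lay above both shScr day 0 libraries in all 4 genes. In shIL1R cells the day 4 libraries lay above day 0 for SLC16A6 and TFPI2, below it for TFRC, and overlapped it for DPP4. At day 4 both shIL1R libraries lay below both shScr libraries in all 4 genes. At day 0 both shIL1R libraries stood above both shScr libraries for DPP4, SLC16A6 and TFPI2, and the genotypes overlapped for TFRC. For DPP4, SLC16A6 and TFPI2 the difference thus holds a gap at day 0 as well as one at day 4. Each call was lost with no filter on low values (limma adjusted p = 0.0747 to 0.0973) and with the replicate number as a block within genotype (limma adjusted p = 0.0538 to 0.0684).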

How the results depend on the processing

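Without 1 library the count of genes higher at day 4 in shIL1R cells ran from 1849 to 3303 and of genes lower from 1771 to 3379, and in shScr cells from 1722 to 3238 and from 1610 to 3096. Genes with a more positive difference in shIL1R cells, 0 by limma, numbered 1 with only the libraries of the contrast or with the day 0 and day 4 libraries alone, 42 by DESeq2, and 0 to 4 without 1 library. Genes with a more negative one, 4 by limma, numbered 0 with no filter, 1 with quantile normalization, 0 with a replicate block within genotype, 62 by DESeq2, and 0 to 22 without 1 library. The replicate block over all libraries gave 2789 genes higher and 2797 lower in shIL1R cells and the block within genotype 2755 and 2802. Between day 0 and day 4 the deviations of same-numbered libraries had an r of 0.231 in shIL1R and −0.0453 in shScr cells, and with 2 numbers per group this does not settle whether the numbers pair the libraries. No called value changed sign under these settings. Of the values compared with the main fit 7642 were counted as the same, and 76 lost and 1 gained a call. A further 246 counts moved by over 1.5 times or to or from 0, the cause of which was not tested. Counts within 1.5 times and genes whose call did not change were taken as the same. Uncalled genes were taken as the same also where their sign changed. With 2 libraries per group, differences between genotypes can lie below what these data can show. This holds for large differences too, since those given above for CYP26B1, TNFSF15 and IL6 did not pass.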
